A study of Mus musculus with 27 samples.

Results

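The genes described here encode integrins, the transmembrane receptors that bind cells to matrix or to other cells, and laminins, the cross-shaped glycoproteins of the basement membrane. They were chosen by symbol, as every integrin alpha gene, every numbered integrin beta gene and every laminin alpha, beta or gamma chain gene, which gave 37 of the 55487 genes in the count table. The set holds 18 integrin alpha chains, 8 integrin beta chains and 11 laminin chains (5 alpha, 3 beta and 3 gamma). RNA of mouse heart ventricle was sequenced in 27 libraries of 7 groups to follow normal postnatal expression and how its level changes with more or less MBNL1, a splicing regulator that binds RNA. At postnatal day 60 there were 5 libraries of MBNL1 loss of function (KO) and 4 controls (Ctl) taken 7 days after knockout, and 4 KO libraries and 3 controls taken 14 days after knockout. Hearts of postnatal day 7 gave 4 libraries of MBNL1 gain of function (Tg) and 3 control libraries, and hearts of postnatal day 1 gave 4 control libraries. How the knockout was induced, which part of the gene was deleted, what drives the transgene, and which other alleles or agents the controls carry are details that the sources used here do not give. Nothing in the labels ties each library to an animal of its own, so the tests measure the spread between libraries, which may be technical in part.

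An integrin is a pair of one alpha and one beta chain, and the pair decides what it binds: collagens, laminins, ligands with an RGD sequence such as fibronectin, or proteins on other cells. A laminin is a trimer of one alpha, one beta and one gamma chain, laid down in the basement membrane that surrounds each cardiomyocyte and every vessel. In striated muscle the integrin of the alpha7 and beta1 chains and the dystroglycan complex are the main laminin receptors, and both tie the contractile apparatus to the matrix.

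Totals ran from 21929347 to 25675115 counts per library, and the level that 0 counts still allow (3 counts, for counting error only) was 0.0958 to 0.188 CPM, the scaled count relative to the library's size. Mbnl1 itself was at 219, 102, 167, 115 and 168 CPM in the libraries labelled KO at 7 days, against 146 to 153 CPM in their controls, so counts over the whole gene did not check that label and KO below means so labelled. At 14 days Mbnl1 was at 115 to 137 CPM against 151 to 170.1 CPM, and in the Tg libraries it was at 2934 to 4079 CPM against 96.9 to 105 CPM. Esr1, the estrogen receptor gene, was at 195 to 1955 CPM in the libraries labelled KO and at most 1.5 CPM in the day 60 controls, with the lowest KO values in libraries 5, 1 and 3 of 7 days (195, 234 and 650.2 CPM). Mitochondrially encoded genes held 14.7% to 21.6% of counts in the libraries labelled KO and 26% to 29.6% in the day 60 controls. Cardiomyocyte transcripts were abundant in every library, with Myh6 at 6492 CPM or more and the ventricular light chain Myl2 at 2282 CPM or more.

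Promoters are shown for 4 members that stand at the extremes of the comparison of KO with control: Itgb6 and Lamb3, which had the largest falls, and Itgam and Itgax, neighbouring genes with the largest rises at 7 days. They were chosen after their values were seen. Each sequence runs 5′ to 3′ on the gene's strand from 250 bases before to 50 bases after the first start listed for the gene by RefSeq (GRCm38.p6). Itgb6 and Lamb3 have a second listed start, and the counts do not show which start was used. Itgb6 is at chr2:60722554-60722853 (minus strand), Lamb3 at chr1:193301744-193302043 (plus), Itgam at chr7:128062390-128062689 (plus) and Itgax at chr7:128129300-128129599 (plus). Capitals mark matches, on either strand, to any of 6 short motifs: GAGGAA (the core bound by the myeloid factor PU.1), TGANTCA (AP-1), GGGCGG (the GC box), GGAATG (TEAD), the CArG box and the MEF2 motif.
Itgb6: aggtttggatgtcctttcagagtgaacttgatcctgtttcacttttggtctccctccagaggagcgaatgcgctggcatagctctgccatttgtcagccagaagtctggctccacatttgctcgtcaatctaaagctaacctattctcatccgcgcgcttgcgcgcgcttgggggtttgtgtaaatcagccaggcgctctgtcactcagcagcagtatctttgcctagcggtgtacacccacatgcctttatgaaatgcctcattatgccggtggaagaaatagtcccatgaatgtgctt
Lamb3: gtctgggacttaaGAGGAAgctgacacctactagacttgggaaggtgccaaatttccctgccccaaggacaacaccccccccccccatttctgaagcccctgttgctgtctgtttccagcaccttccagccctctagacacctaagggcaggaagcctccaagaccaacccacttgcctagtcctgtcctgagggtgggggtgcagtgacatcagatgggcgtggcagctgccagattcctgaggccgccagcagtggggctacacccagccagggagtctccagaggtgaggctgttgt
Itgam: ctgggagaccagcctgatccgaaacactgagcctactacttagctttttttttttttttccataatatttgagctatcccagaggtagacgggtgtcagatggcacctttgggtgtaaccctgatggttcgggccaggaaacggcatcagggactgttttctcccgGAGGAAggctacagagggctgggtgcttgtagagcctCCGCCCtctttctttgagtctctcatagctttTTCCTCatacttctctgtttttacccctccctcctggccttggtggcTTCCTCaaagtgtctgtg
Itgax: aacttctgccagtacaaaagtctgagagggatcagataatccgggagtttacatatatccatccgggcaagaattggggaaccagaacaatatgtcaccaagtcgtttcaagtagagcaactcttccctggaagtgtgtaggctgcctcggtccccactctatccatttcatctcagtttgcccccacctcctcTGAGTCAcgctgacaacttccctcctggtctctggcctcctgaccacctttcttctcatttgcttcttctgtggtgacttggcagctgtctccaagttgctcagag
The Itgam window held 3 matches to GAGGAA and 1 to GGGCGG, the Itgax window 1 to TGANTCA, the Lamb3 window 1 to GAGGAA and the Itgb6 window none. At the second listed starts, not printed, the Itgb6 window held 1 GAGGAA and 1 CArG box, and the Lamb3 window 1 GGAATG. Such matches are common: of 32851 promoters of this length, 28.3% held GAGGAA, 35.7% GGGCGG, 14.7% GGAATG, 7.81% TGANTCA, 1.63% a CArG box and 0.557% a MEF2 motif. RefSeq promoters were found for 23 of the 37 members, of which 14 held GAGGAA, 11 GGGCGG, 3 GGAATG, 3 TGANTCA, 2 a CArG box and 0 a MEF2 motif in at least 1 listed promoter. The matches are a description of the letters, and whether any factor binds there was not measured.

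Per kilobase of exon, which allows genes to be compared, the highest integrin chain in every group was Itgb1, the common beta chain, at 97.8 ± 1.43 CPM per kb in the controls of 7 days (mean ± SD, n = 4) and 159 ± 20.5 (n = 5) in the libraries labelled KO. In the same controls Lamb2 followed at 91.0 ± 6.21, Itgb5 at 42.9 ± 5.19, Lamc1 at 36.5 ± 2.06, Itga7 at 29.3 ± 1.39, Lama5 at 23.9 ± 3.42 and Itga5 at 20.9 ± 1.43 CPM per kb. The SDs of Itgb1 and Lamb2 did not separate them, nor did those of Itgb5 and Lamc1 or of Lama5 and Itga5. Lama1, a chain of early basement membranes, was at most 0.447 CPM in any library and was not tested in any comparison.

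A member was called higher or lower at an adjusted p under 0.05 in edgeR's quasi-likelihood test, with p-values adjusted over all genes tested. At 7 days after knockout 20 of 35 tested members were higher and 2 lower, where 26.4% of all tested genes were higher and 24.3% lower. Their median log2 fold change was 0.69, against 0.03 over all genes. At 14 days after knockout 16 of 35 were higher and 3 lower, with 21.8% and 22.4% of all genes so called, and the medians were 0.43 and 0.01. With library sizes taken as total counts instead of TMM, the median over all genes moved to 0.45 at 7 days and 0.39 at 14 days, and 83.5% and 81.9% of the calls were higher, against 52.0% and 49.4% with TMM. The members called higher were then 23 and 25 of 35, where 8062 of 15167 and 7288 of 14976 genes were higher. In RNA of whole tissue, fewer cells of a type and less RNA per cell cannot be told apart.

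**Figure D1:**
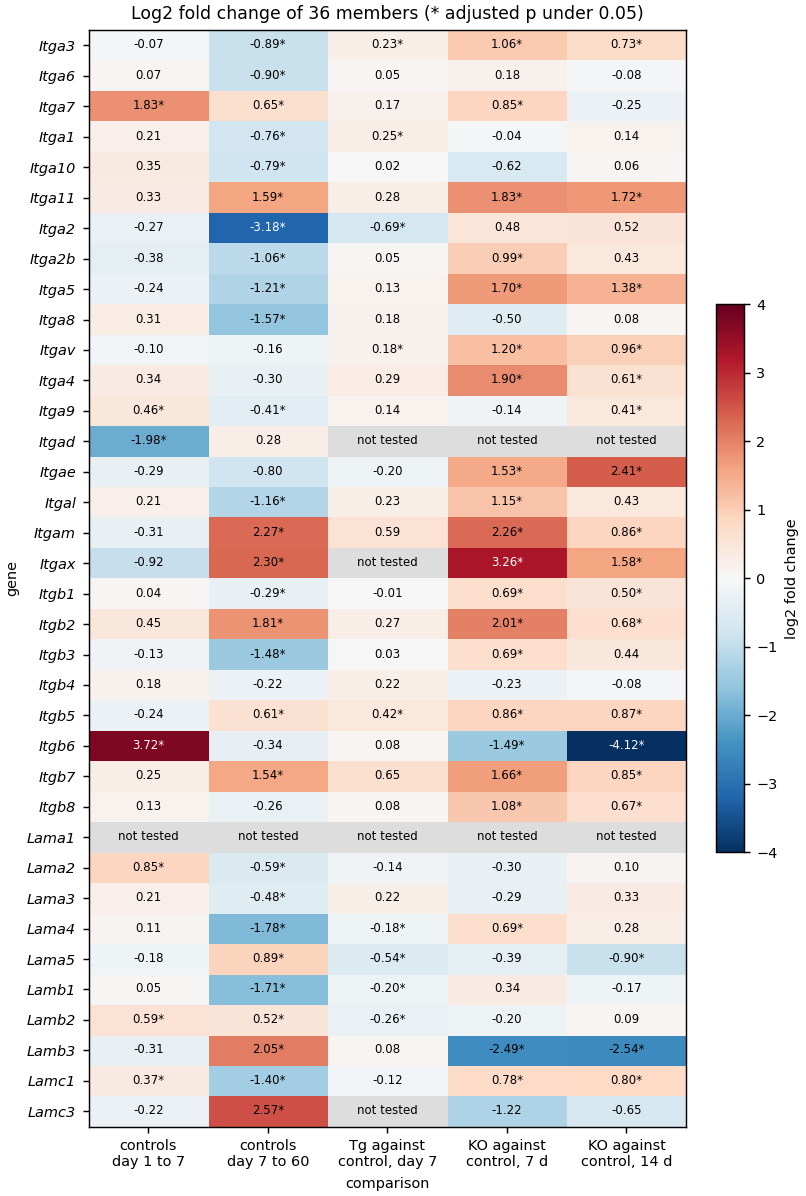
Log2 fold changes of 36 members (rows, ordered by role) in 5 comparisons (columns), coloured from blue (lower) to red (higher), with an asterisk at an adjusted p under 0.05 and grey where the gene was not tested. The column for KO at 7 days holds 19 higher and 2 lower calls, and the rows of Lamb3 and Itgb6 are blue in both KO columns.

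The laminin chains divided after knockout. Lamc1 (chromosome 1, 153218922 to 153332786, minus strand), the gamma chain of most laminins, was at 468, 584, 491, 560.3 and 505 CPM in the libraries labelled KO at 7 days and at 287, 291, 325 and 303 CPM in the controls. All libraries labelled KO were above all controls, and Lamc1 rose by a log2 fold change of 0.78 ± 0.10 (SE, adjusted p = 1.2e-04). At 14 days it was at 478 to 538 CPM against 274 to 303 CPM, a rise of 0.80 ± 0.08 (adjusted p = 3.7e-05).

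Lamb3 (chromosome 1, 193207699 to 193343878, plus strand), a beta chain of epithelial laminin that pairs with Lama3, moved the other way. It was at 4.79, 8.08, 6.99, 5.66 and 3.64 CPM in the libraries labelled KO at 7 days and at 30.6, 39.5, 35.5 and 25.1 CPM in the controls. At 14 days it was at 4.49, 4.72, 6.02 and 5.26 CPM against 23.7, 25.8 and 39.3 CPM. Every library labelled KO was below every control at both times. Lamb3 was 5.63-fold lower at 7 days (log2 fold change -2.49 ± 0.22, adjusted p = 1.5e-05) and 5.82-fold lower at 14 days (-2.54 ± 0.19, adjusted p = 4.5e-06). Lama3, its partner alpha chain, stayed below 5 CPM in the day 60 libraries and was not called at either time.

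Lama4, an alpha chain of vessel and muscle basement membranes, was at 108 to 146 CPM in the libraries labelled KO at 7 days against 74.8 to 89.3 CPM, and the groups did not overlap. It rose by 0.69 ± 0.11 (adjusted p = 4.7e-04). At 14 days it was at 99.8 to 123 CPM against 84.6 to 109.6 CPM, and its difference of 0.28 ± 0.12 was not called. Lama5, the broadly expressed alpha chain of epithelial and vessel basement membranes, was at 111, 102, 164 and 110.5 CPM in the libraries labelled KO at 14 days and at 199.8, 210.5 and 267 CPM in the controls. It fell by 0.90 ± 0.17 on the log2 scale (adjusted p = 0.0017). At 7 days the KO values of Lama5 split, with libraries 1, 3 and 5 at 129, 187 and 163 CPM and libraries 2 and 4 at 279 and 288 CPM, within the control range of 224 to 307 CPM, and Lama5 was not called (-0.39 ± 0.23, adjusted p = 0.18). Lama2, the alpha chain of muscle basement membrane, was lowest in KO libraries 1 and 5 of 7 days (90.2 and 76.4 CPM, against 137 to 156 CPM in the other 3 and 139 to 160.0 CPM in the controls) and was not called at either time.

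**Figure D2:**
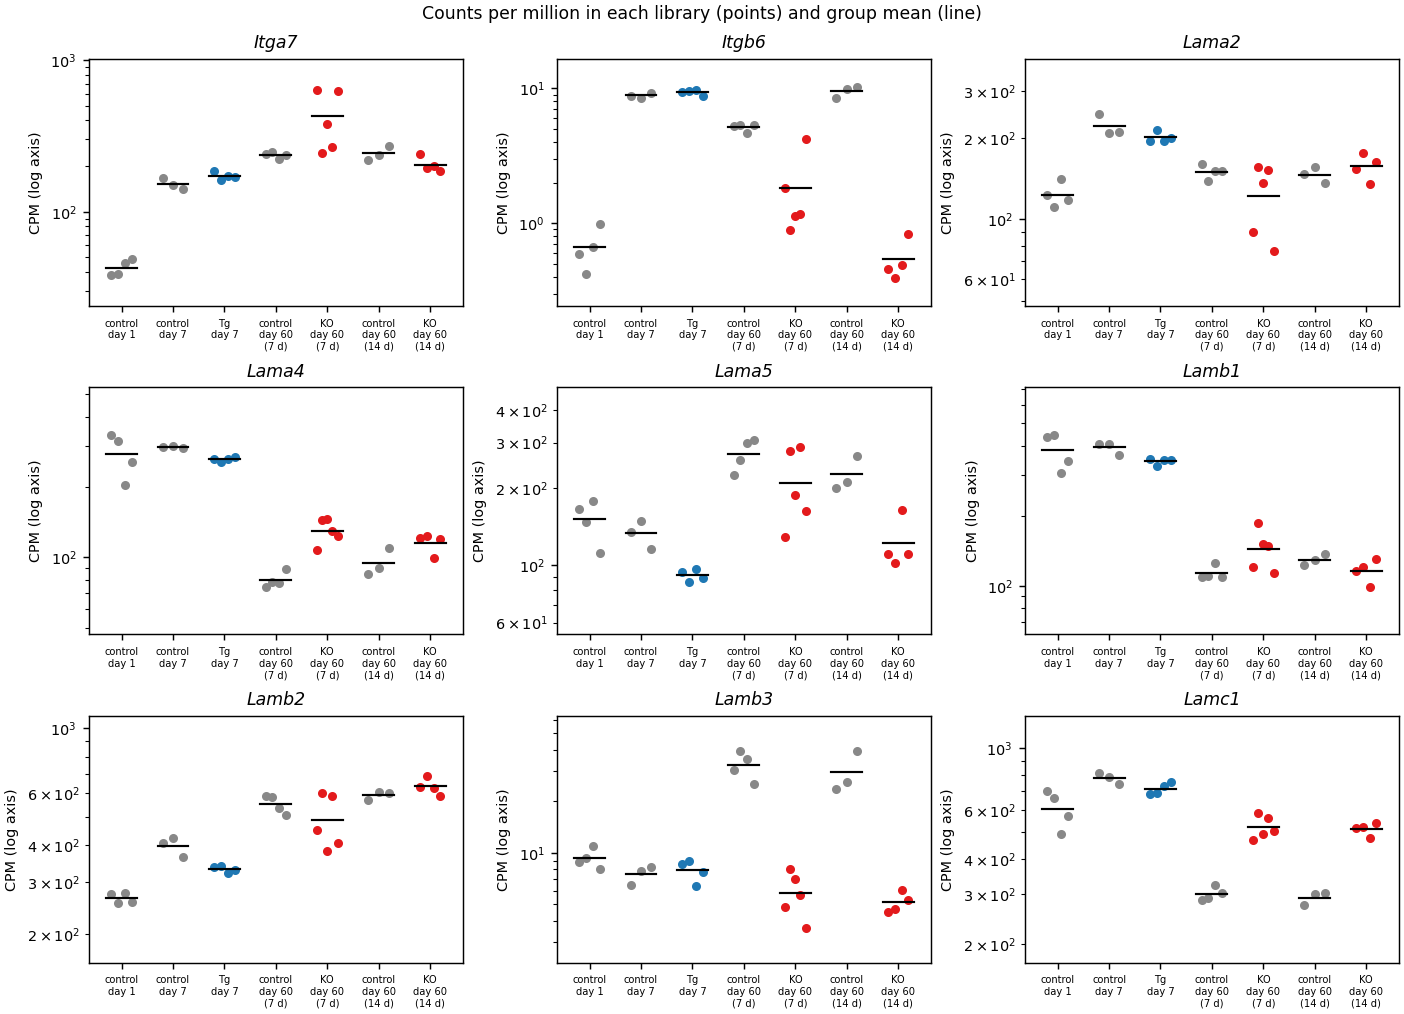
CPM (log axis) in each library (points) with group means (lines) for Itga7, Itgb6 and 7 laminin chains, grey for controls, blue for Tg and red for KO. The red points of Lamb3 lie between 3.64 and 8.08 CPM and the day 60 controls between 23.7 and 39.5 CPM, and the red points of Itga7 at 7 days spread from 245 to 635 CPM.

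Shares within a library do not depend on the scaling of libraries. Of the summed laminin alpha chains per kilobase, Lama4 held 16.6% ± 0.967 (SD, n = 4) in the controls of 7 days and 30.2% ± 5.20 (n = 5) in the libraries labelled KO, and 21.2% ± 0.769 (n = 3) and 31.8% ± 3.55 (n = 4) at 14 days. Lama5 held 59.5% ± 3.39 in the controls and 48.9% ± 5.21 in KO at 7 days, and 53.5% ± 3.01 and 35.3% ± 7.42 at 14 days. Lamb3 held 4.58% ± 0.699 of the laminin beta chains in the controls of 7 days and 0.930% ± 0.257 in KO, and 3.87% ± 0.983 and 0.667% ± 0.111 at 14 days. In each of these shares the ranges of KO and control libraries were apart, except for Lama5 at 7 days, at 43.6% to 55.4% in KO and 54.7% to 62.3% in the controls. The summed laminin gamma chains stood at 67.2 ± 5.54 CPM per kb in KO and 37.9 ± 2.16 in controls of 7 days, and at 66.4 ± 3.26 and 36.9 ± 1.75 in those of 14 days.

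**Figure D3:**
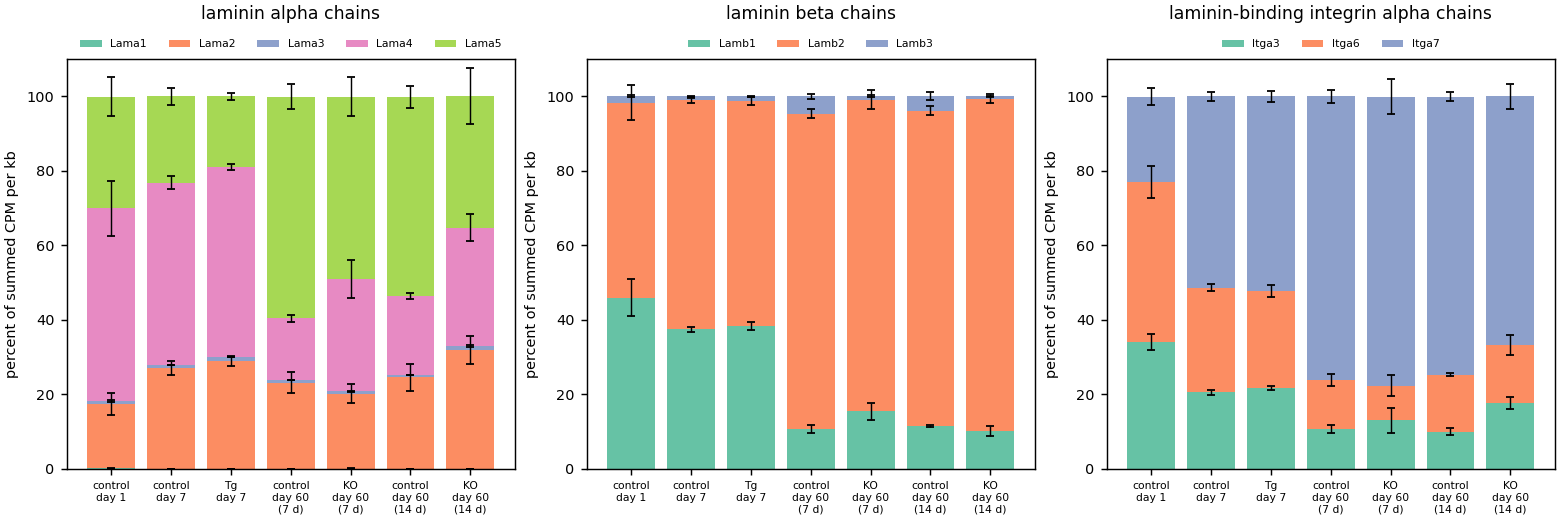
Share of each chain (percent of the summed CPM per kb, stacked bars of group means with SD bars) within the laminin alpha chains, the laminin beta chains and the laminin-binding integrin alpha chains in the 7 groups. The Lama4 share is 49.0% in the day 7 controls, 16.6% in the controls of 7 days and 30.2% in KO at 7 days.

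Among the laminin-binding integrins, Itga3 rose and Itga6 did not. Itga3 was at 57.6, 36.0, 27.4, 41.6 and 84.6 CPM in the libraries labelled KO at 7 days and at 21.8 to 25.2 CPM in the controls, with its highest values in libraries 1 and 5. It rose by 1.06 ± 0.28 at 7 days (adjusted p = 0.0098) and by 0.73 ± 0.09 at 14 days (35.4 to 40.2 CPM against 22.3 to 23.1 CPM, adjusted p = 8.9e-05). Without KO libraries 1 and 5 the rise of Itga3 at 7 days was smaller, at 0.57, and still called (adjusted p = 0.0050). Itga7 (chromosome 10, 128933818 to 128958282, plus strand), the laminin-binding chain of striated muscle, was at 635, 245, 377, 269 and 623 CPM in KO at 7 days and at 222 to 249 CPM in the controls. Libraries 1 and 5 held the high values and library 2 lay within the control range. Its rise of 0.85 ± 0.28 (adjusted p = 0.027) was no longer called in 8 of 16 alternative settings, among them without libraries 1 and 5 (0.33, adjusted p = 0.062). At 14 days Itga7 was at 186 to 239 CPM against 219 to 272 CPM and was not called (-0.25 ± 0.11, adjusted p = 0.095), and with total counts this difference was 0.12.

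Of the 4 RGD-binding alpha chains, Itga5 and Itgav rose at both times, Itga2b was called higher at 7 days and not at 14 days, and Itga8 was called at neither time. Of the beta chains that pair with them, Itgb1, Itgb5 and Itgb8 rose at both times, Itgb3 was called at 7 days, and Itgb6 fell. Itga5 (chromosome 15, 103344286 to 103366763, minus strand), the alpha chain of the main fibronectin receptor, was at 470.3, 234, 262, 289 and 437 CPM in KO at 7 days and at 95.6, 113, 103 and 102 CPM in the controls. It was at 313, 270.2, 221 and 265 CPM in KO at 14 days and at 96.0, 101 and 108 CPM in the controls. Within each time every library labelled KO was above every control, and Itga5 rose by 1.70 ± 0.21 (adjusted p = 1.1e-04) and 1.38 ± 0.12 (adjusted p = 1.1e-05). Itgav, the alpha chain shared by the vitronectin receptors and the integrins that activate latent TGF-beta, was at 46.1 to 63.5 CPM against 20.6 to 24.0 CPM at 7 days and rose by 1.2 ± 0.11. At 14 days it was at 35.7 to 48.5 CPM against 21.8 to 22.5 CPM and rose by 0.96 ± 0.12. Its beta partner Itgb5 rose by 0.86 ± 0.14 and 0.87 ± 0.10, and Itgb8 by 1.08 ± 0.30 and 0.67 ± 0.21, the latter call lost in 6 of 13 alternative settings. Itgb3 rose by 0.69 ± 0.14 at 7 days and was not called at 14 days (0.44 ± 0.23). At 7 days Itgb1 was at 567 to 785 CPM, with controls at 390.4 to 403 CPM, and at 14 days at 461 to 635 CPM, with controls at 362 to 426 CPM, rises of 0.69 ± 0.11 and 0.50 ± 0.12.

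Itgb6 (chromosome 2, 60598292 to 60722643, minus strand), the partner of Itgav known from epithelia, fell at both times. It was at 1.81, 0.889, 1.14, 1.17 and 4.19 CPM in the libraries labelled KO at 7 days and at 5.23, 5.35, 4.66 and 5.38 CPM in the controls. It was at 0.458, 0.390, 0.494 and 0.835 CPM in KO at 14 days and at 8.43, 9.85 and 10.3 CPM in the controls. No KO library reached a control, although library 5 of 7 days came close, and the controls of the 2 times did not overlap each other. Itgb6 was 2.81-fold lower at 7 days (-1.49 ± 0.40, adjusted p = 0.0096) and 17.4-fold lower at 14 days (-4.12 ± 0.24, adjusted p = 1.1e-06). Without library 5 the value at 7 days was -2.04 (adjusted p = 7.0e-05), and without libraries 1 and 5 it was -2.26 (adjusted p = 6.2e-06).

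**Figure D4:**
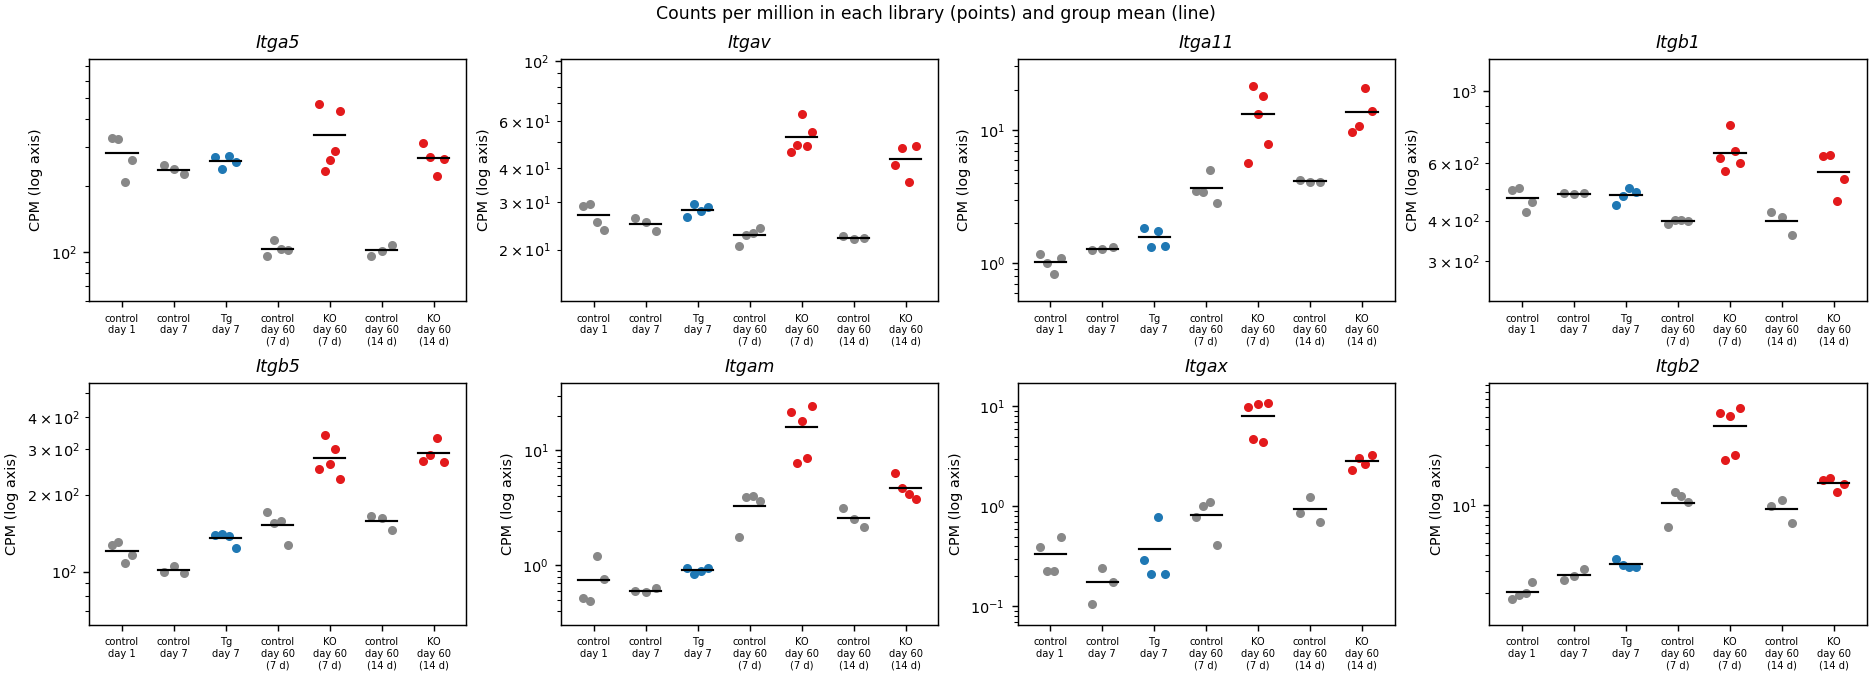
CPM (log axis) in each library (points) with group means (lines) for 8 integrin chains, grey for controls, blue for Tg and red for KO. Itgax, Itgam and Itgb2 lie higher in KO at 7 days than at 14 days, and Itga11 in KO lies between 5.63 and 21.3 CPM, above all other groups.

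Of the collagen-binding chains, Itga11, the chain of fibroblasts, rose and Itga1, Itga2 and Itga10 were not called. Itga11 was at 5.63, 21.3, 13.2, 18.1 and 7.83 CPM in KO at 7 days against 2.84 to 5.05 CPM, and at 9.71, 10.7, 20.5 and 13.8 CPM at 14 days against 4.05 to 4.24 CPM. The groups did not overlap, and libraries 1 and 5 were the lowest of KO at 7 days. The rises were 1.83 ± 0.38 (adjusted p = 0.0026) and 1.72 ± 0.26 (adjusted p = 4.1e-04). Of 8 fibroblast markers 5 were higher at 7 days and 7 at 14 days, with summed levels of 3455 to 8820 CPM against 1189 to 1436 CPM and of 4160 to 5175 CPM against 1362 to 1507 CPM, and none of them was at 0. Their part in the result was not tested.

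Of the leukocyte chains, Itgax, Itgam and Itgb2 had the 3 largest rises of all members at 7 days. Itgax (chromosome 7, 128129547 to 128150657), the alpha chain of macrophages and dendritic cells, was at 9.82, 4.75, 10.6, 4.40 and 10.8 CPM in KO at 7 days and at 0.414 to 1.11 CPM in the controls. It was at 2.34 to 3.26 CPM against 0.702 to 1.25 CPM at 14 days. The groups were apart at both times, and Itgax was 9.58-fold and 2.99-fold higher (3.26 ± 0.39, adjusted p = 8.8e-05, and 1.58 ± 0.26, adjusted p = 7.7e-04). Itgam (chromosome 7, 128062640 to 128118491), the myeloid alpha chain beside it, was at 21.7, 7.77, 18.1, 8.56 and 24.3 CPM against 1.76 to 4 CPM and rose by 2.26 ± 0.40. Itgb2, their shared beta chain, was at 54.4, 23.0, 51.4, 25.2 and 58.8 CPM against 6.69 to 12.7 CPM and rose by 2.01 ± 0.32. In Itgam, Itgax and Itgb2 alike the higher values at 7 days were in libraries 1, 3 and 5, the libraries with the lower Esr1 levels. At 14 days Itgam rose by 0.86 ± 0.23 and Itgb2 by 0.68 ± 0.16, with KO and control libraries apart.

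Itga4, the partner of Itgb1 or Itgb7 that binds VCAM1 and fibronectin, rose by 1.90 ± 0.21 at 7 days (7.54 to 11.7 CPM against 1.82 to 3.22 CPM) and by 0.61 ± 0.19 at 14 days, the latter call lost in 3 of 13 alternative settings. Itgb7 rose by 1.66 ± 0.34 and 0.85 ± 0.25, the latter call also lost in 3 of 13 settings (0.67, adjusted p = 0.12, with a replicate block, and without control library 5 or 6). Itgae, its partner that binds E-cadherin, rose by 1.53 ± 0.45 and 2.41 ± 0.34, with low levels throughout. At 7 days Itgae was at 0.435 to 1.34 CPM in KO and 0.0592 to 0.446 CPM in the controls, ranges that overlapped. At 14 days it was at 1.14 to 1.71 CPM against 0.188 to 0.308 CPM. Itgal, another leukocyte alpha chain, rose by 1.15 ± 0.31 at 7 days and was not called at 14 days (0.43 ± 0.27). Itga2b, the alpha chain of platelets, rose by 0.99 ± 0.25 at 7 days and was not called at 14 days (0.43 ± 0.29). Of 11 macrophage markers, 10 were higher at 7 days (summed levels of 1309 to 1872 CPM against 521 to 606 CPM) and 9 at 14 days (823 to 1196 CPM against 420.2 to 656 CPM), and none was at 0 in a group. Of 9 lymphocyte markers 3 were tested at 7 days and 2 were higher, with sums of 5.17 to 7.30 CPM against 2.13 to 3.11 CPM. Of 8 megakaryocyte and platelet markers 3 were tested and 1 was higher, with sums of 12.7 to 33.1 CPM against 11.1 to 15.0 CPM. Gp1bb was at 0 in KO and Gp6 in the controls of 14 days. The part of these cells in the results was not tested.

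Among the members not called at either time, Itga6, a laminin receptor chain, had means of 51.6 and 45.2 CPM in KO and control at 7 days and 52.8 and 55.4 CPM at 14 days. Itga8, the nephronectin receptor chain, was at -0.50 ± 0.25 and 0.08 ± 0.25, Itga10 at -0.62 ± 0.24 (adjusted p = 0.050) and 0.06 ± 0.27, Itgb4, the beta chain of hemidesmosomes, at -0.23 ± 0.14 and -0.08 ± 0.18, and Lamc3 at -1.22 ± 0.57 and -0.65 ± 0.46. Lamb1 was at 0.34 ± 0.14 and -0.17 ± 0.10 and Lamb2 at -0.20 ± 0.15 and 0.09 ± 0.08, and Itga9 rose at 14 days (0.41 ± 0.12, adjusted p = 0.015) and not at 7 days (-0.14 ± 0.14). Without KO libraries 1 and 5, Lamb1 at 7 days was called higher (0.52, adjusted p = 0.0016) and Lamc3 lower (-1.93, adjusted p = 0.019). With the replicate block, a fit that also left out KO library 5, Lamb1 at 7 days was called higher (0.41, adjusted p = 0.032). Itgad was not tested at either time.

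No member's response was called different between 14 and 7 days in the fit of the 16 libraries of day 60, where 0% of 15951 genes were called. Of the 36 members tested 9 were under an unadjusted p of 0.05, as were 1662 of the 15951 genes. The smallest adjusted p of a member was 0.15. DESeq2 called 2 members, Itga4 and Itgb6, and 147 genes in all, and limma-voom called 0. The fitted differences were -2.61 ± 0.55 for Itgb6, -1.66 ± 0.52 for Itgax, -1.31 ± 0.41 for Itgb2, -1.27 ± 0.29 for Itga4 and -1.08 ± 0.35 for Itga7. The tests at 7 and at 14 days share no library. Both fits covered 35 members, of which 15 rose in each (42.9%, against 17.3% of 14734 genes), Itgb6 and Lamb3 were lower at both (5.71% against 18.3%), and 0 were called in opposite directions.

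**Figure D5:**
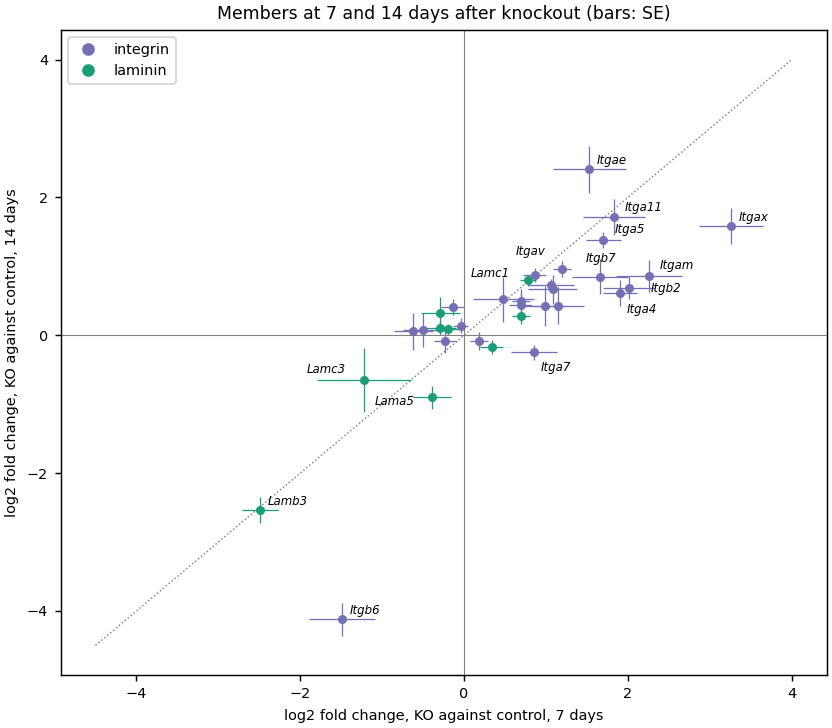
Log2 fold change of KO against control at 14 days (vertical) against that at 7 days (horizontal) for members tested at both times (1 left out), integrins in purple and laminins in green, with SE bars and the line of equality dotted. Lamb3 lies near the line at -2.49 and -2.54, Itgb6 below it at -1.49 and -4.12 and Itgax below it at 3.26 and 1.58.

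The partners of the members were read from lists of the same pathways. Over all tested genes, 26.4% were higher and 24.3% lower at 7 days, and 21.8% and 22.4% at 14 days. Of 29 tested integrin ligands outside the basement membrane, 23 were higher and 2 lower at 7 days, with a median of 1.92 against 0.03 over all genes, and 24 of 28 were higher and 1 lower at 14 days. The list shares Col1a1, Col1a2 and Postn with the fibroblast markers. Tnc, the tenascin that Itga9 and Itgav integrins bind, went from 2.12 ± 0.876 CPM in the controls to 236 ± 130.1 CPM at 7 days (SD, log2 fold change 6.79 ± 0.57), and Postn, the matricellular ligand periostin, from 55.4 ± 1.29 to 1362 ± 432 CPM at 14 days (4.61 ± 0.27). Vtn, the ligand vitronectin, fell by 1.49 ± 0.16 and by 0.74 ± 0.16 on the log2 scale. Of 22 basement membrane partners of laminin, 9 were higher and 1 lower at 7 days and 14 higher and 1 lower at 14 days, led by Sparc, a collagen-binding matrix protein, at 1.81 ± 0.16 and 1.81 ± 0.10. Of 9 genes of latent TGF-beta, the cargo that Itgav integrins activate, 7 and 6 were higher and 1 was lower, with Ltbp2 up by 4.83 ± 0.27 and 4.58 ± 0.23 and Ltbp1 down (-1.01 ± 0.19 and -0.91 ± 0.12).

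Of 40 tested genes of the adhesion complex inside the cell, 19 were higher and 6 lower at 7 days, and 18 and 6 at 14 days, where 26.4% and 24.3% of all genes were higher and lower at 7 days and 21.8% and 22.4% at 14 days. The lower genes were thus a smaller share of this list than of all genes. Flnc, the muscle filamin that links integrins to actin, rose by 2.25 ± 0.39 at 7 days, and Ptk2b, a kinase related to focal adhesion kinase, rose by 2.03 ± 0.15 at 14 days. The other laminin receptor of muscle, the dystroglycan complex, had 2 higher and 6 lower of 21 genes at 7 days, a share of lower genes near that of all genes, and 4 higher and 10 lower at 14 days. Among them Dmd, dystrophin, fell by 1.40 ± 0.11 on the log2 scale at 14 days. Of 9 cardiomyocyte markers 7 were lower at each time, with sums at 7 days of 20531 to 48177 CPM (controls 68767 to 74550 CPM) and at 14 days of 44949 to 53206 CPM (controls 70453 to 76532 CPM), and none was at 0. Of 10 endothelial markers 6 and 5 were lower (sums of 666 to 965 CPM against 1149 to 1267 CPM at 7 days). Their part in the member results was not tested.

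In the MBNL1 gain-of-function hearts at day 7 the members moved little. Of 33 tested, 5 were higher and 5 lower, with 14.9% and 15.8% of all genes so called, and none changed 2-fold, against 3.37% of all genes. Itgb5 was at 139, 139.8, 138 and 124 CPM in the Tg libraries and at 99.7, 105 and 99.1 CPM in the controls, a rise of 0.42 ± 0.06 (adjusted p = 1.5e-04). Lama5 was at 94.5, 86.4, 96.7 and 89.0 CPM against 135, 149 and 116 CPM, a fall of 0.54 ± 0.08 on the log2 scale (adjusted p = 1.6e-04), and Itga2, a collagen receptor chain, was at 4.09 to 4.93 CPM against 6.98 to 7.57 CPM, a fall of 0.69 ± 0.10 (adjusted p = 2.7e-04). Each of these groups was apart from its controls. The other rises included Itga1, Itga3 and Itgav (0.18 to 0.25), and the other falls were of Lama4, Lamb1 and Lamb2 (-0.18 to -0.26). The Itgav call was lost in 9 of 13 alternative settings, among them total counts, DESeq2 and the replicate block. The laminin alpha chains summed to 42.6 ± 0.155 CPM per kb in Tg and 50.4 ± 2.12 in the controls. With all 27 libraries in one fit 1 member, Itgb5, remained higher and 0 lower. In that fit the calls over all genes also fell, to 511 higher and 462 lower of 17261. Of 11 macrophage markers 9 were higher in Tg, with sums of 176 to 231 CPM against 109 to 139 CPM, and none was at 0, and 5 of 8 fibroblast markers were higher (5090 to 5927 CPM against 4190 to 4837 CPM), and their part was not tested. Itgam (0.59 ± 0.22), Itgb2 (0.27 ± 0.13) and Itgal (0.23 ± 0.12) were not called.

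In the controls the members changed with age, mostly between days 7 and 60. From day 1 to day 7, 6 of 36 tested members were higher and 1 lower, where 12.3% and 11.2% of all genes were so called (52.4% of the calls higher, and 41.0% with total counts). Itgb6 rose from 0.423 to 0.991 CPM at day 1 to 8.53 to 9.26 CPM at day 7, 13.2-fold, and Itga7 from 38.3 to 48.6 CPM to 141 to 167 CPM, 3.56-fold. Both groups were apart, with log2 fold changes of 3.72 ± 0.19 (adjusted p = 3.2e-08) and 1.83 ± 0.10 (adjusted p = 5.5e-08). The muscle laminin chains Lama2 and Lamb2 rose by 0.85 ± 0.09 and 0.59 ± 0.07, Itga9 by 0.46 ± 0.12 and Lamc1 by 0.37 ± 0.10, the last not called without day 1 libraries 3 and 4 (0.20, adjusted p = 0.060). Itgad, the one member that fell (-1.98 ± 0.47), was at most 1.77 CPM, and its exons overlap those of the antisense gene Cox6a2 at 969 to 3990 CPM, so without a stated strand setting its counts are uncertain. Without day 1 libraries 3 and 4, 5 of 36 members were lower, where 2954 of 16500 genes were lower, a larger share.

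From day 7 to day 60, 11 of 36 members were higher and 18 lower, with 33.3% and 36.0% of all genes so called and medians of -0.38 for the members and -0.05 for all genes. With total counts the median over all genes was -0.65, and 18.0% of all calls were higher, against 48.1%. In that setting 7 members were higher and 24 lower, where 2354 and 10707 of 16388 genes were higher and lower. Of the laminin chains, Lama2, Lama3, Lama4, Lamb1 and Lamc1 were among those that fell, and Lama5, Lamb2, Lamb3 and Lamc3 rose. Lama2 fell by 0.59 ± 0.08 on the log2 scale. Lama4 went from 295 to 299 CPM at day 7 to 74.8 to 109.6 CPM at day 60 (-1.78 ± 0.12, adjusted p = 6.4e-09), Lamb1, the beta chain of vessel and embryonic laminins, from 367 to 409 CPM to 109 to 137 CPM (-1.71 ± 0.09), and Lamc1 from 744 to 812 CPM to 274 to 325 CPM (-1.40 ± 0.08). Lamb3 rose from 6.45 to 8.28 CPM to 23.7 to 39.5 CPM (2.05 ± 0.19, adjusted p = 1.9e-07), Lama5 by 0.89 ± 0.15 and Lamb2 by 0.52 ± 0.07, but with total counts Lama5 was no longer called (0.29) and Lamb2 was at -0.08. Within the beta chains the Lamb1 share went from 45.9% ± 4.99 at day 1 to 37.4% ± 0.643 at day 7 and 10.7% ± 1.02 in the controls of 7 days, and the Lamb2 share from 52.4% ± 4.75 to 61.5% ± 0.663 and 84.7% ± 1.25. The Lama5 share of the alpha chains went from 23.2% ± 2.22 at day 7 to 59.5% ± 3.39.

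Among integrins Itga7 rose by a further 0.65 ± 0.10 from day 7 to day 60 (0.04 with total counts), while Itga3 and Itga6 fell by 0.89 ± 0.07 and 0.90 ± 0.09. The Itga7 share of the laminin-binding alpha chains therefore went from 23.0% ± 2.32 at day 1 to 51.4% ± 1.22 at day 7 and 76.2% ± 1.68 in the controls of 7 days, 3 ranges that did not overlap. It was 77.6% ± 4.67 in KO at 7 days and 66.8% ± 3.29 in KO at 14 days, where its controls had 74.6% ± 1.23. Itga5 fell by 1.21 ± 0.11, Itga8 by 1.57 ± 0.18, and Itgb3 by 1.48 ± 0.20 on the log2 scale, and Itga2 was 9.06-fold lower (-3.18 ± 0.30). Itgax, Itgam and Itgb2 rose by 2.30 ± 0.41, 2.27 ± 0.33 and 1.81 ± 0.20 and Itga11 by 1.59 ± 0.19. All 11 macrophage markers were higher at day 60, with sums of 420.2 to 656 CPM against 109 to 139 CPM, and of 8 fibroblast markers 1 was higher and 6 were lower, and their part was not tested.

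For a comparison of age with knockout, the change from day 7 to day 60 was fitted with the day 60 controls that the knockout comparison did not use, a setting added after the data were seen. At 7 days, 9 members that fell with age were higher in KO, among them Itga2b, Itga3, Itga5, Itgal, Itgb1, Itgb3, Lama4 and Lamc1 (25.7% of 35, against 13.6% of 14837 genes). Itga11, Itga7, Itgam, Itgax, Itgb2, Itgb5 and Itgb7 were higher in both (7 of 35, against 3.64%), and Lamb3 was higher with age and lower in KO (2.86%, against 16.7%). The rises of Itga7 and Itgb5 with age depended on the scaling. With total counts and all day 60 controls they were 0.04 and 0.00 and were not called. At 14 days, 6 members fell with age and were higher in KO (among them Itga3, Itga5, Itga9, Itgb1 and Lamc1; 17.1%, against 11.5%), 6 were higher in both (17.1%, against 3.97%), and Lama5 and Lamb3 were higher with age and lower in KO (5.71%, against 2362 of 14774 genes, a larger share). Itgb6 was lower in both at 14 days, where its change with age was -0.77 ± 0.18 against the controls of 7 days, and it was 0.10 ± 0.20 against those of 14 days. Thus Lamc1, at 744 to 812 CPM at day 7 and 274 to 325 CPM in the day 60 controls, stood at 468 to 584 CPM in the libraries labelled KO, and Itga5, at 225 to 248 CPM at day 7 and 95.6 to 113 CPM in the day 60 controls, stood at 221 to 470.3 CPM.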

How the data were processed

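Ventricle RNA of 27 libraries was sequenced on the DNBseq platform, per the labels' protocols. The authors deposited whole-number counts of reads per Ensembl gene; per the submitters' processing notes the tools were STAR, featureCounts, Salmon and DESeq2 and the build GRCm38 (mm10), with no roles or versions. The sources used here give neither the annotation release nor the strand setting. Symbols and exon lengths came from GENCODE M21 on GRCm38, which matched 55227 gene identifiers and lacked 260. Exon lengths cover all transcripts of a gene and lower the per-kilobase level of genes with long models.

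Counts were filtered with filterByExpr, scaled by TMM and tested with edgeR 4.0.16 (glmQLFit and glmQLFTest, R 4.3.3), with Benjamini-Hochberg adjustment over all genes tested. On simulated counts the test recovered 99 of 100 genes changed 2-fold at 7 days (14947 genes), 90 of 100 at 14 days (14765 genes) and 97 of 100 for Tg (15650 genes). The bound first set, over 90%, was not met at 14 days and was then lowered to 80%. The simulation gave every gene the same relative spread beyond counting error, and changed only genes above a minimum level. The shares recovered therefore check the fit and are not the power in the real data. Each SE is the size of the log2 fold change divided by the square root of F, and levels are CPM after TMM over all 27 libraries. KO and Tg were each fitted with their own controls alone, and control ages in a fit of the 14 control libraries. Alternatives were total-count scaling, DESeq2 1.42.0, limma-voom 3.58.1, no filter, all libraries in one fit, a replicate block over same-numbered libraries only, and leaving libraries out. No 2 libraries of a group agreed within sampling noise (chi-square per degree of freedom of 6.34 or more over 40 pairs). Members follow the symbol rule; the pathway genes named are drawn from the largest called rise and fall of each list in each comparison, among genes with a mean of at least 5 CPM over its libraries. Which of them, and which promoters and motifs, are shown was chosen after their values were seen. The values of 1 member and of some pathway genes are not reported here, although counts include them. The members, lists and tests were chosen with earlier results of these data known.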

Additional observations from a re-analysis of the deposited data

Results flagged for a closer look

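In groups of 4 or 5 libraries with a mean of at least 1 CPM, a level set after the data were seen, 11 of 159 pairs of member and group held a library whose gap to the others was large for the group's range, where chance gives about 1 in 20. They were Itga1 in Tg library 1 (106 CPM), Itga10 in Tg library 4 (2.33), Itgal in Tg library 1 (6.78), Itgb5 in Tg library 4 (124) and Lamb1 in Tg library 2 (328). At day 60 they were Itga9 in control library 4 of 7 days (107 CPM), Lamb1 in control library 3 of 7 days (125), Itgb6 in KO library 5 of 7 days (4.19), Itga4 in KO library 7 of 14 days (5.32), and Lama4 (99.8) and Lama5 (164) in KO library 8 of 14 days.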

How the results depend on the processing

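Of 87 calls of a member in a comparison, 66 were kept in every setting run (members called under no setting were not followed singly). With total counts the members higher 14 days after knockout went from 16 to 25, those lower from day 1 to day 7 from 1 to 2 (also 2 with DESeq2 and 5 without day 1 libraries 3 and 4), and those higher from day 7 to day 60 from 11 to 7. Over all genes those higher at 14 days went from 3272 to 7288 of 14976, and those higher from day 7 to day 60 from 5456 to 2354 of 16388. Genes lower from day 1 to day 7 went from 1828 to 2322 of 16388 (2067 with DESeq2, and 2954 of 16500 without day 1 libraries 3 and 4). With total counts Itga7 at 14 days was at 0.12, Lamb2 from day 7 to day 60 at -0.08 and Itga1 at 7 days, which was -0.04, at 0.39. Itga1 was also at 0.06 without KO libraries 1 and 5. With all 27 libraries in one fit the Tg calls of members fell to 1 higher and 0 lower, and those of all genes to 511 and 462 of 17261. Members whose response differed between 14 and 7 days numbered 2 with DESeq2, 1 without a low-count filter and 2 with all libraries in one fit. Over all genes these settings called 58 higher and 89 lower of 15951, 3 and 10 of 32350, and 14 and 38 of 17261. Leaving out each library in turn gave 0 to 1 members with a differing response. The 1 came without KO library 2 of 7 days, where 4 genes were higher and 17 lower of 15863. Members higher in Tg were then 3 to 6 (1776 to 2204 of all genes), with 3 members and 1776 genes without day 7 control library 2. Those lower from day 1 to day 7 were 1 to 4 (1074 to 2218 of all genes), with 4 members and 2218 genes without day 1 library 3. Itga1 at 7 days ran from -0.08 to 0.01. Correlations of same-numbered libraries, as deviations from their group means over 5000 genes, ran from -0.44 to 0.16. Differently numbered libraries were not compared in this way, so whether the replicate numbers pair the libraries is not decided. A replicate block kept only libraries whose number occurred in both groups, so the libraries changed along with the pairing. It left out KO library 5 of 7 days, Tg library 4 and day 1 library 4. At 14 days it kept libraries 6 and 7 of each group, and day 60 was the controls of 7 days alone. Members higher and lower were then 20 and 2 at 7 days (3412 and 3177 of 14898 genes) and 15 and 3 at 14 days (3013 and 3150 of 14860). They were 4 and 5 in Tg (1864 and 1966 of 15727) and 5 and 1 from day 1 to day 7 (895 and 729 of 15817). From day 7 to day 60 they were 11 and 19 (5216 and 5489 of 15365), and 0 responses differed. Under this block Itga1 at 7 days was at 0.00. The cause of these differences was not tested. Values of members near the floor, such as Itgad, Itgae and Lamc3, are limited by depth.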
